A study of Mus musculus with 12 samples.

Results

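Slc34a1 and the clustered genes Slc17a1, Slc17a2, Slc17a3 and Slc17a4 encode transporters of the renal tubule that carry phosphate or organic anions. Their RNA was measured in sorted cells of newborn mouse kidney. The genes were taken as every transcript of the deposited table that overlapped a pair of mm9 windows on chromosome 13, 1 around the Slc17 genes and 1 around Slc34a1. The windows held 12 transcripts, which formed 6 loci when those overlapping on the same strand were summed, out of 26699 loci in the table. The 5 named genes account for 5 of these loci, and the sixth is a short locus on the opposite strand at the end of Slc34a1. After a filter on low counts 13749 loci were tested, and 4 of the 5 genes were among them. Slc17a2 was too low to pass and is given by its fragments. Neither Slc17a3 nor Slc17a4 passed when the low groups were fitted by themselves. In the fit of all groups Slc17a4 passed through the high cells alone. Slc17a3 had enough fragments for that filter in control low libraries too (11, 17 and 17). Counts over the 4 are descriptions.

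The 12 samples were titled mutant high expression (2 samples), control high expression (2), mutant low expression (4) and control low expression (4). All groups were taken at postnatal day 0, all carried the R26R-tdTomato reporter, a red fluorescent protein gene at the Rosa26 locus, and all were Six2-expressing kidney cells collected by flow cytometry, which the labels call fetal kidney cells. Six2 is a transcription factor of the progenitors that form the nephron. Which signal was high or low is not stated in the titles, no sample label names the allele, the Cre or the sex, and Eed, a subunit of Polycomb repressive complex 2, stands in the series title alone. Since nothing in the labels tells whether a replicate is a separate animal, the p-values here speak only of the variation among the samples at hand, part of which may be technical.

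The proximal tubule reabsorbs most filtered phosphate through sodium-coupled cotransporters of its brush border, and Slc34a1 (NaPi-IIa) is the main one of these in the mouse, removed from the membrane when parathyroid hormone or FGF23 acts on the cell. The SLC17 family was first described as type I sodium-phosphate cotransporters. Slc17a1 and Slc17a3 are proximal tubule proteins best known for carrying urate and other organic anions, and Slc17a4 is a relative known mainly from the intestine. In the nephron these genes belong to cells that have left the progenitor state.

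Libraries held 7779040 and 9307989 fragments in mutant high, 4549011 and 6249263 in control high, 5948488 to 12317879 in mutant low and 6784907 to 12365078 in control low cells. Both control high libraries stood apart: chromosome M held 4.51% and 10.3% of their fragments, and between 0.494% and 1.96% of those of the 10 remaining libraries. The file pairs no identifier with a gene symbol, so marker genes of other kidney cell types, the other phosphate-handling genes and the targeted gene were not analysed here, and the labelled cell type was not checked. In these bulk samples fewer cells of a type and less RNA per cell cannot be told apart.

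In mm9, Slc17a2 lay on the plus strand of chromosome 13 at 23898896 to 23915394, Slc17a3 at 23931303 to 23952583 and Slc17a1 at 23960887 to 23987599. Slc17a4 lay on the minus strand at 23989758 to 24006876, so that its end and the end of Slc17a1 faced each other across 2158 bases. The cluster spanned 107.981 kb. Slc34a1 lay on the plus strand at 55501009 to 55516056, 31.4941 Mb beyond the cluster. Names were given by the order and strand of the genes and by transcript spans in GENCODE M21, a GRCm38 annotation: the best spans differed by 0 bases for Slc17a3, 2 for Slc17a4, 4 for Slc34a1, 8 for Slc17a1 and 85 for Slc17a2. Slc17a3 held 4 transcripts, Slc17a1 held 3, Slc34a1 held 2, and Slc17a2 and Slc17a4 held 1 each.

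The RefSeq promoter table, on GRCm38.p6, matched 4 of the 5 genes. The windows shown were picked by the result: Slc34a1, Slc17a1 and Slc17a3 were the loci called lower in mutant than in control cells. Each window holds 250 bases before and 50 after the annotated start. Capitals mark the HNF1 core GTTAAT, the HNF4 core CAAAG and the TATA box TATAAA, searched on both strands, where HNF1 and HNF4 are transcription factor families of the proximal tubule. No base was shared between matches. The Slc34a1 window is chr13:55399398-55399697, the Slc17a1 window chr13:23870023-23870322 and the Slc17a3 window chr13:23839184-23839483, all on the plus strand.
Slc34a1: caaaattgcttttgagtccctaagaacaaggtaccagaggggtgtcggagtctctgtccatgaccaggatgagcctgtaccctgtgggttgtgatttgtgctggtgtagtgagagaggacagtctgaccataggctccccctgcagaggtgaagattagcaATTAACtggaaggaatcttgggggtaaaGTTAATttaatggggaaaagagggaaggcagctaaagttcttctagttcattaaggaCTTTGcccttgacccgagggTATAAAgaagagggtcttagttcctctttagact
Slc17a1: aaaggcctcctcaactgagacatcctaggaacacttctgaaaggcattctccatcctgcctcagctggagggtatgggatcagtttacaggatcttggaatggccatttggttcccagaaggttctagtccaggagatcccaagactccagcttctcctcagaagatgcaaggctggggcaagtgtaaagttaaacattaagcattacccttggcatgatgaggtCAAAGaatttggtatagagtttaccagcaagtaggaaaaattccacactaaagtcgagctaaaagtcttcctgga
Slc17a3: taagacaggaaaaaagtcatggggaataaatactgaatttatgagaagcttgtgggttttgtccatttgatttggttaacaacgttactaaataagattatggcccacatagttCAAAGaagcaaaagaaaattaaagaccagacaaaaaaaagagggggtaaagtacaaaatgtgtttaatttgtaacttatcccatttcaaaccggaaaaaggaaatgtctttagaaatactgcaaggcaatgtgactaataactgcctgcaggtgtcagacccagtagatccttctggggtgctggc

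The Slc34a1 window held the HNF1 core at 2 positions, with leftmost bases 89 and 61 before the start, the HNF4 core 4 before the start and the TATA box 16 after it. The Slc17a1 and Slc17a3 windows held the HNF4 core at 1 position each, 25 and 136 bases before the start. Of all 32851 promoter windows in the table, 7.10% held the HNF1 core, 53.9% the HNF4 core and 13.6% the TATA box. These matches are descriptions of the letters and not of binding. The Slc34a1 window belongs to the start of the longer of its deposited transcripts: the shorter transcript begins 3556 bases downstream in the table, and the GENCODE transcript matched to it begins 3556 bases downstream of the RefSeq start. For Slc17a1 the window shown is the second of 2 in the table, whose start lies 8 bases from the GENCODE start matched to the abundant transcript. The first Slc17a1 window held none of these motifs. The window of Slc17a2, which was not called lower and is not shown, held the HNF4 core at 2 positions.

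All 5 genes had their highest mean in control high cells, and Slc34a1 stood far above the others. Slc34a1 was measured at 481 and 432 CPM in mutant high and at 4028 and 3357 CPM in control high cells. CPM stands for counts scaled to a common library size by TMM, a method that sets aside the most different loci when it finds the scale. In mutant low cells Slc34a1 was at 7.62, 2.13, 3.78 and 0.650 CPM, and in control low cells at 86.8, 93.6, 9.83 and 46.3 CPM. No range overlapped the next in the order control high, mutant high, control low, mutant low. Of all tested loci, 31.2% had both mutant high samples below both control high samples, 27% had every control low sample below both mutant high samples and 6.69% had every mutant low sample below every control low sample. Group means of Slc34a1 were 457 ± 34.9 CPM in mutant high, 3693 ± 474 CPM in control high, 3.55 ± 3.002 CPM in mutant low and 59.1 ± 38.9 CPM in control low cells (SD, n = 2, 2, 4 and 4).

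Slc17a1 (NPT1), which carries urate and organic anions at the apical membrane, followed at 21.9 and 47.0 CPM in mutant high and 336 and 132 CPM in control high cells. It had 0, 0, 0.333 and 0.0812 CPM in mutant low cells, against 9.82, 6.66, 1.51 and 10.5 CPM in control low cells. Mutant low cells held 4 fragments of it in all, and the floor of 3 fragments corresponded to 0.244 to 0.457 CPM in those libraries. The 4 groups stood in the same order as for Slc34a1 and did not overlap.

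Slc17a3 (NPT4), a urate and organic anion carrier of the same membrane, had 4.93 and 7.51 CPM in mutant high and 73.8 and 64.4 CPM in control high cells. Its values were 0.231, 0, 0 and 0.0812 CPM in mutant low cells, or 3 fragments in all, and 1.29, 2.31, 0.324 and 1.40 CPM in control low cells. The ranges again kept apart in the same order, although the lowest control low library rested on 3 fragments.

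For Slc17a4 the low groups were not separate. It had 11.1 and 14.2 CPM in mutant high and 27.7 and 34.6 CPM in control high cells, against 0.462, 0, 0.222 and 0.406 CPM in mutant low and 0.351, 1.49, 0.432 and 0.903 CPM in control low cells. The low ranges overlapped, with 11 fragments in mutant low and 29 in control low libraries. Every high library lay above every low library. Slc17a2, the other member of the cluster, held 3 and 7 fragments in mutant high libraries and 7 in each control high library. It held none in the 4 mutant low libraries and 1, 2, 1 and 0 fragments in control low libraries. The locus opposite the end of Slc34a1, at 55516049 to 55516593 on the minus strand, overlapped it by 8 bases and held 1 and 1 fragments in mutant high, 3 and 8 in control high, 1 in mutant low and 0 in control low libraries. The use of strand in counting is not given in the sources used here, so fragments over the 8 shared bases cannot be told apart.

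**Figure D1:**
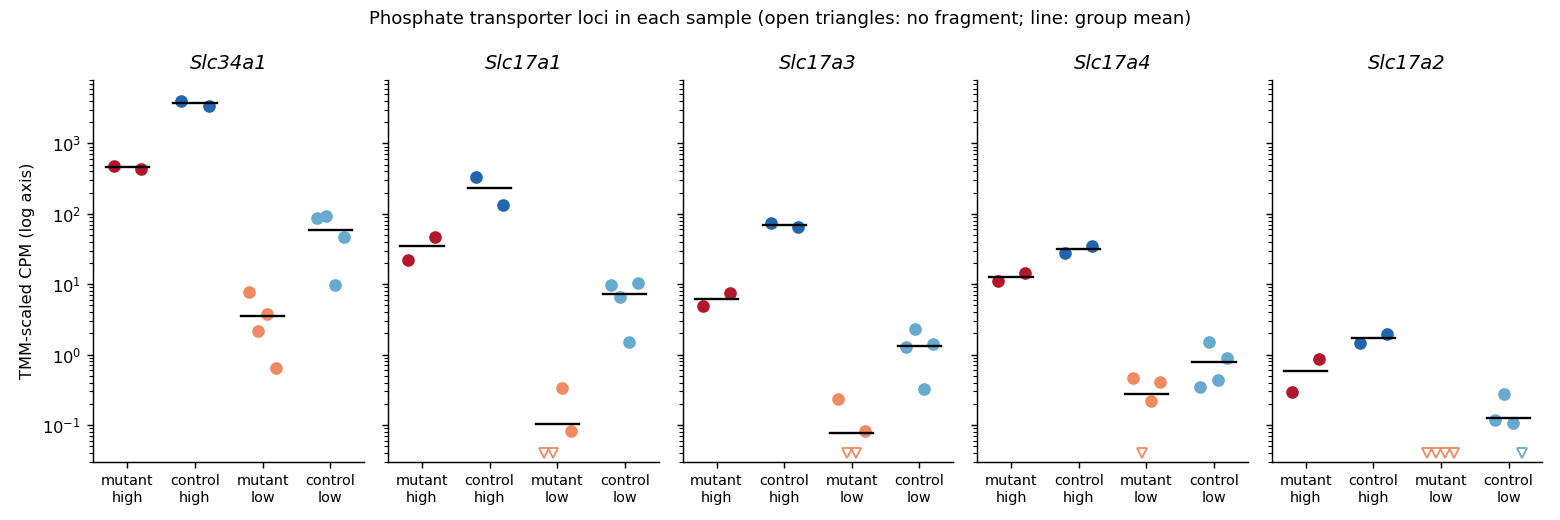
TMM-scaled CPM (log axis) of the 5 genes in each of the 12 samples, with mutant high, control high, mutant low and control low cells from left to right. Filled points are samples, open triangles samples with no fragment, and lines group means. For Slc34a1, Slc17a1 and Slc17a3 the 4 groups form separate steps, while for Slc17a4 the mutant low and control low points overlap.

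Whether the mutant high cells differed from control high cells was tested with the quasi-likelihood F test of edgeR, in a fit of all 12 samples with p-values adjusted over all 13749 loci. Of the 4 genes tested 3 were lower in mutant high cells, in a comparison where 27.5% of all loci were called, 11.2% lower and 16.3% higher. On the log2 scale the edgeR difference was -3.48 for Slc17a3 (SE 0.57, adjusted p = 0.000694), -2.77 for Slc17a1 (SE 0.76, adjusted p = 0.0193) and -3.02 for Slc34a1 (SE 1.004, adjusted p = 0.0469). The median over all loci was 0.08. Mean levels in mutant high cells were 12.4% of those in control high cells for Slc34a1, 14.7% for Slc17a1 and 9.00% for Slc17a3. The log2 difference of -1.30 for Slc17a4 (SE 0.52, edgeR adjusted p = 0.0757) did not pass, and its mean was 40.6% of the control high mean. Both mutant high samples lay below both control high samples for all 4 tested genes, as they did for 31.2% of all loci. With 2 samples against 2 an exact permutation test cannot go below p = 0.333.

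The call for Slc34a1 in the high cells was not firm. It was lost on leaving out mutant high sample 1 (edgeR adjusted p = 0.160), mutant high sample 2 (0.205), control high sample 1 (0.120) or control high sample 2 (0.103), and also without mutant low sample 2 or 3 or control low sample 1, 2 or 4 (0.0548 to 0.0634), while its log2 fold change stayed between -3.15 and -2.84. Slc17a1 lost its call without mutant high sample 1 (edgeR adjusted p = 0.129), mutant high sample 2 (0.0559) or control high sample 1 (0.129), with log2 fold changes of -2.32, -3.41 and -1.91. Slc17a3 stayed called without any 1 of the 12 samples (adjusted p at most 0.0119). Slc17a4 passed when mutant low sample 2 was left out (edgeR adjusted p = 0.0450), with DESeq2 (adjusted p = 0.0178), with limma-voom (adjusted p = 0.0220) and in an edgeR fit of the high groups alone (adjusted p = 0.0172). With chromosome M left out, on which the control high libraries stood apart, 13741 loci were fitted and the 3 calls were kept. Slc34a1 then had a log2 fold change of -3.02 (edgeR adjusted p = 0.0468). That fit dropped few loci, so it cannot tell whether the control high libraries differ in quality or composition.

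In low cells Slc34a1, Slc17a1 and Slc17a3 were lower in mutant samples, in a comparison where 8.03% of all loci were called, 3.21% lower and 4.82% higher. The edgeR log2 difference was -5.85 for Slc17a1 (SE 0.91, adjusted p = 0.00144), -4.07 for Slc34a1 (SE 0.78, adjusted p = 0.00798) and -3.77 for Slc17a3 (SE 0.76, adjusted p = 0.00366), against a median of -0.06 over all loci. Every mutant low sample lay below every control low sample for these 3 genes, as for 6.69% of all loci. An exact two-sided permutation test on log2(CPM + 0.1) gave p = 0.0286 for each of the 3, the smallest it can give with 4 against 4. For Slc17a4 the log2 difference of -1.37 did not pass (SE 0.60, edgeR adjusted p = 0.196; exact permutation p = 0.143).

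Counting error was large for the rarer genes in low cells. From summed fragments scaled to the libraries, Slc34a1 was 16.7-fold lower in mutant low cells (95% interval 13.9 to 20.2, 122 against 2086 fragments). Slc17a1 was 67.3-fold lower (26.0 to 249, 4 against 275 fragments) and Slc17a3 15.7-fold lower (5.05 to 78.6, 3 against 48 fragments). The ratio for Slc17a4 was 2.58-fold (1.25 to 5.72, 11 against 29 fragments). These exact binomial intervals cover counting error only and not the spread between samples. The 3 calls in low cells held without any 1 of the 12 samples, with edgeR adjusted p of at most 0.0333. Their log2 differences then ran from -7.14 to -5.49 for Slc17a1, from -4.77 to -3.69 for Slc34a1 and from -4.70 to -3.41 for Slc17a3. The lowest of these were reached without mutant low sample 3 for Slc17a1 and without mutant low sample 1 for the other genes.

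Between high and low cells, Slc17a1 and Slc34a1 were higher in mutant high than in mutant low cells, with log2 fold changes of 8.12 (SE 0.92, edgeR adjusted p = 3.08e-05) and 7.02 (SE 0.91, edgeR adjusted p = 0.000179). In that comparison 32.2% of all loci were called, 19% higher and 13.2% lower. Both were also higher in the control high group than in control low cells, with 5.97 for Slc34a1 (SE 0.86, edgeR adjusted p = 0.000168) and 5.03 for Slc17a1 (SE 0.64, edgeR adjusted p = 4.38e-05), where 52.3% of loci were called, 25.3% higher and 27% lower. Slc17a3 was higher in high cells as well, by 6.00 in mutant cells (SE 0.71, edgeR adjusted p = 1.09e-05) and 5.71 in control cells (SE 0.49, edgeR adjusted p = 3.76e-07). Slc17a4 entered the fit only because it was high in the high cells. Its values describe that choice and are given with no test: 5.35 (SE 0.55) in mutant cells and 5.29 (SE 0.49) in control cells. Single libraries moved some of these values by more than 1.5 times. The mutant value was 9.40 for Slc17a1 without mutant low sample 3 and 7.47 without mutant high sample 2, and without mutant low sample 1 it was 7.71 for Slc34a1 and 6.94 for Slc17a3. The control value of Slc17a1 was 4.18 without control high sample 1.

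Ranges of high and low cells were apart for Slc34a1, Slc17a1 and Slc17a3 in both genotypes. Such separation was found for 26.7% of all loci between mutant high and mutant low samples and for 30.7% between control high and control low samples. Among the 13749 loci ordered from the highest log2 fold change, Slc17a1 ranked 21, Slc34a1 90 and Slc17a3 213 in mutant high against mutant low cells. In control high against control low cells Slc34a1 ranked 151, Slc17a3 196 and Slc17a1 404. Slc17a4 also had separate ranges, but it passed the filter only through the high cells. Its separation and ranks are therefore not set against all loci. Fitted without the low-count filter, Slc17a2 gave log2 fold changes of 5.28 in mutant cells (edgeR adjusted p = 0.00898) and 3.73 in control cells (edgeR adjusted p = 0.00535). The first of these was set against 4 libraries with no fragment, so its size depends on the fit and is no bound: mutant high libraries held 10 fragments of Slc17a2 in all and mutant low libraries 0. Neither mutant comparison called Slc17a2 (adjusted p = 0.303 in low and 0.373 in high cells in the same edgeR fit).

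**Figure D2:**
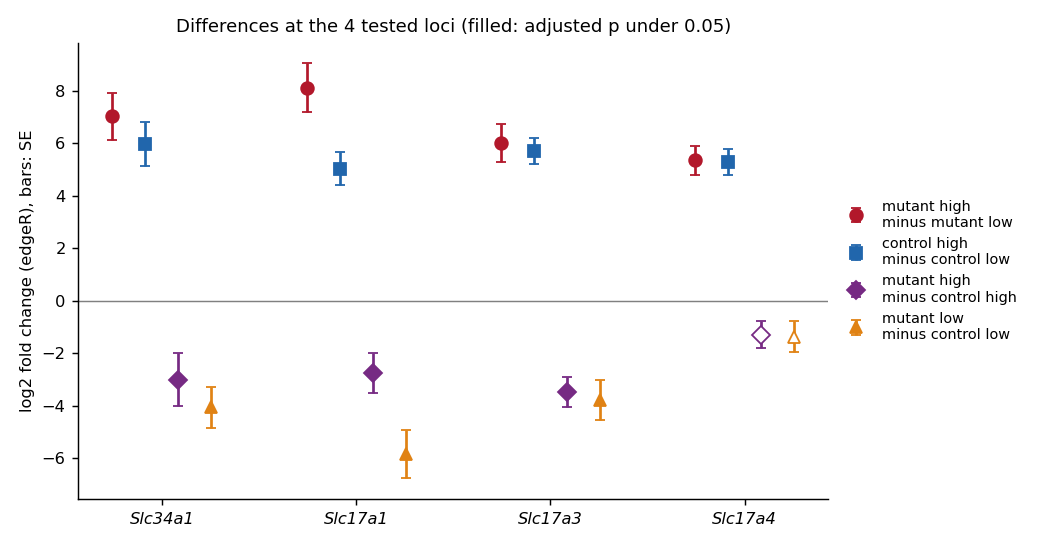
Log2 fold changes from edgeR with their standard errors for the 4 tested genes in 4 comparisons, where filled symbols mark an adjusted p under 0.05. For Slc17a4 the filled high against low symbols are descriptions and not tests, since that gene passed the low-count filter only through the high cells. All high against low differences lie above 5, and Slc17a4 is the gene whose 2 mutant differences, -1.30 and -1.37, are drawn open.

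Whether the mutant difference was the same in high and low cells was tested as an interaction, which called 10.3% of all loci, 7.29% higher and 3.05% lower, and none of the 4 genes. The difference of the log2 fold changes, high minus low, was 3.08 for Slc17a1 (SE 1.31, edgeR adjusted p = 0.141; unadjusted p = 0.0285), 1.05 for Slc34a1 (SE 1.18, adjusted p = 0.623), 0.30 for Slc17a3 (SE 1.08, adjusted p = 0.808) and 0.07 for Slc17a4 (SE 0.80, adjusted p = 0.951). The last 3 had unadjusted p of 0.390, 0.641 and 0.894. With standard errors of 0.80 to 1.31, interactions near 1 on the log2 scale were not detectable with these samples. For Slc17a1 the interaction passed with DESeq2 (3.18, adjusted p = 0.0426) and without control low sample 3 (3.37, edgeR adjusted p = 0.0355).

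The summed cluster gave 38.3 and 69.5 CPM in mutant high and 439 and 233 CPM in control high cells. It was at 0.693, 0, 0.556 and 0.568 CPM in mutant low and at 11.6, 10.7, 2.38 and 12.8 CPM in control low cells. Most of each sum outside mutant low cells was Slc17a1. The mutant low mean was 4.84% of the control low mean (exact permutation p = 0.0286), and the mutant high mean was 16.0% of the control high mean. Control low sample 3 was the lowest of its group for Slc34a1, Slc17a1, Slc17a3 and the cluster sum, 9.52-fold, 6.94-fold, 7.12-fold and 5.39-fold below the highest sample of the group.

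Levels of different genes were compared per kb of exonic length. Slc34a1 made up 90.3% of the per-kb sum of the 5 genes in mutant high, 92.2% in control high, 91.7% in mutant low and 86.7% in control low cells. Slc17a1 was the next, at 7.52% in mutant high, 6.45% in control high and 11.5% in control low cells. In mutant low cells Slc17a4 was the next at 4.33%, ahead of Slc17a1 at 2.96%, on 11 and 4 fragments. Slc17a4 and Slc17a3 changed places between genotypes: Slc17a4 had 3.58 ± 0.610 and Slc17a3 1.45 ± 0.427 CPM per kb in mutant high cells, against 8.83 ± 1.39 and 16.2 ± 1.57 CPM per kb in control high cells (SD, n = 2 each).

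Each Slc17 gene was also set against Slc34a1 in the same library, which needs no scaling of libraries. There were 23.1 and 32.8 Slc17a4 fragments per 1000 Slc34a1 fragments in mutant high cells, against 6.87 and 10.3 in control high cells, a log2 difference of 1.71. Both mutant high values lay above both control high values. Slc17a1 had 45.6 and 109 per 1000 in mutant high and 83.5 and 39.4 in control high cells, which overlapped. Slc17a3 had 10.2 and 17.4 in mutant high and 18.3 and 19.2 in control high cells, so its mutant high values lay below both control high values. The share of all loci with such separate ratios was not computed. The exact permutation p was 0.333 for Slc17a4 and Slc17a3, the smallest that 2 against 2 allows, and 0.667 for Slc17a1. In mutant low cells these ratios rested on 8 to 66 Slc34a1 fragments and ran from 0 to 625 per 1000 for Slc17a4, against 4.04 to 44.0 in control low cells.

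**Figure D3:**
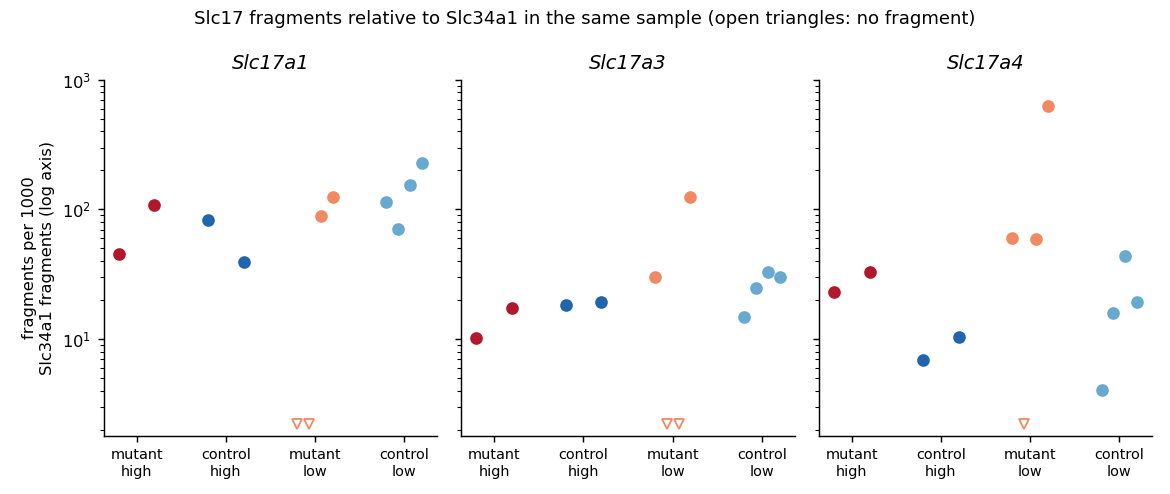
Fragments of Slc17a1, Slc17a3 and Slc17a4 per 1000 Slc34a1 fragments of the same sample (log axis), by group, with open triangles for samples with no fragment. For Slc17a4 the mutant high points, 23.1 and 32.8, lie above the control high points, 6.87 and 10.3. For Slc17a3 the mutant high points lie below the control high points, and the Slc17a1 points of those groups overlap.

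The division between transcripts was estimated by the authors' software and was unsteady at low counts. The longer Slc34a1 transcript, whose promoter is printed above, took 8.66% and 6.16% of the gene's fragments in mutant high and 15.1% and 26.3% in control high cells. It took 9.63% in mutant low sample 1 and under 0.01% in the other 3, against 6.42% to 10.5% in control low cells. For Slc17a1 the transcript starting 1255 bases further upstream took at most 7.79% in every sample with fragments except control low sample 3, where it was given 14.0 of 14 fragments. For Slc17a3 the short transcript ending at 23941246 took 28.6% and 5.30% in mutant high and 0.791% and 27.0% in control high cells. No test was made on these estimates.

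Loci within 200 kb of the windows were found in both directions. Around the Slc17 cluster 9 were tested, of which 3 were higher and 4 lower in mutant high than in mutant low cells (32.2% of all loci were called), and 3 were higher and 3 lower in the control high group than in control low cells (52.3% of all loci). None of the 9 was called between mutant and control cells, where 27.5% of all loci were called in the high and 8.03% in the low comparison. Around Slc34a1 13 were tested, with 2 higher and 1 lower in mutant high than in mutant low cells and 5 higher and 6 lower in the control high group than in control low cells. In mutant high against control high cells 2 were higher and 1 lower, and none was called in low cells.

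A single neighbour of each window is described here for its difference between high and low cells, both singled out after their values were seen. On the plus strand at 55471093 to 55486048, ending 14.961 kb before Slc34a1, a locus had 10.5 ± 2.96 CPM in mutant high, 21.5 ± 5.51 in control high, 0.0278 ± 0.0556 in mutant low and 0.343 ± 0.339 in control low cells. In GRCm38 the protein-coding gene before Slc34a1 on that strand is Rgs14, a regulator of G protein signalling. Its log2 fold changes were 7.95 in mutant cells (edgeR adjusted p = 5.65e-06) and 6.06 in control cells (edgeR adjusted p = 2.40e-06), against 7.02 and 5.97 for Slc34a1. The mutant differences were -1.04 in high cells (edgeR adjusted p = 0.226) and -2.93 in low cells (edgeR adjusted p = 0.151). On the minus strand at 24045326 to 24083083, 38.45 kb from the cluster, the other locus had a log2 fold change of 7.51 in mutant cells (edgeR adjusted p = 0.000205) and of 2.62 in control cells, which did not pass (edgeR adjusted p = 0.0712). It had 7.66 ± 8.57 CPM in mutant high, 1.44 ± 0.0272 in control high, 0.0289 ± 0.0577 in mutant low and 0.244 ± 0.285 in control low cells. The SD in mutant high cells exceeded the mean.

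**Figure D4:**
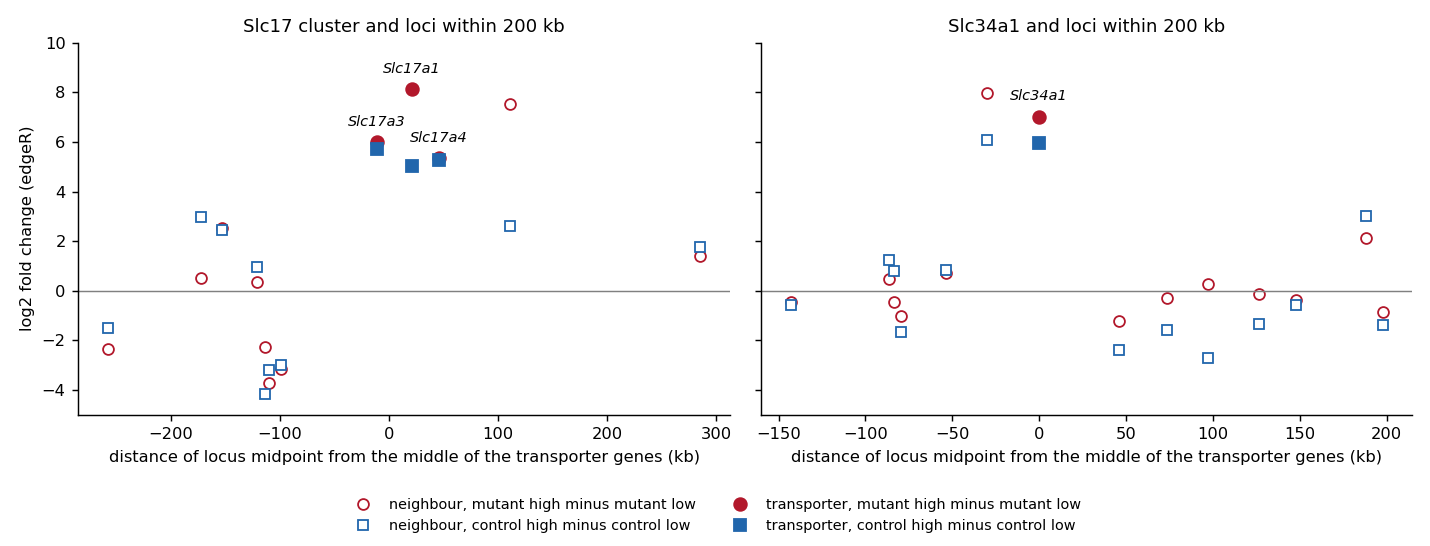
Log2 fold changes of high against low cells for the transporter genes (filled) and the tested loci within 200 kb of them (open), against the distance of each locus midpoint from the middle of the transporter genes in kb. Circles are mutant and squares control cells. Most neighbours lie on either side of 0 below the transporters, which lie above 5 on the log2 scale; the locus nearest before Slc34a1 and 1 circle to the right of the cluster also lie above 6.

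Loci outside both windows were ordered by how like their profiles were to those of these genes, so none of the 5 genes could be listed. Likeness was the root mean square difference of log2(CPM + 0.5), centred on its mean, over the 12 samples, among 12956 loci with a mean of at least 1 CPM, and is given as a description. The nearest to Slc34a1 lay on chromosome 17 at 43611278 to 43639722, minus strand, with a difference of 0.45. It had 251 ± 29.4 CPM in mutant high, 1305 ± 268 in control high, 1.68 ± 1.43 in mutant low and 29.4 ± 17.1 in control low cells. The next lay on chromosome 1 at 89951986 to 90116577, plus strand, at 0.60, and the fifth on chromosome 13 at 73799198 to 73815471, minus strand, at 0.64. The nearest to the cluster sum lay on chromosome 4 at 96294123 to 96330810, minus strand, at 0.40, with 75.3 ± 14.6 CPM in mutant high, 404 ± 70.5 in control high, 0.508 ± 0.453 in mutant low and 8.58 ± 4.06 in control low cells. Slc34a1 itself differed from the cluster sum by 0.96. That is 1 pair fixed beforehand, while the nearest loci were picked as the smallest differences among 12956, so these values are not compared.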

How the data were processed

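The values the authors deposited are estimated counts, in fragments for each UCSC transcript with its mm9 position, 1 column per sample, not normalized; per the file's title they are raw fragments of CuffDiff2. Per the submitters' processing notes, Bowtie2, HTSeq, DESeq2 and mm9 were used, with no roles or versions. How strand and multiply aligned fragments were treated is not given in the sources used here.

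Of 55418 transcripts, 303 had no position and no fragments. The others were summed over same-strand overlaps to 26699 loci and rounded: 99.6% to 99.9% of sums per library were whole within 0.01. Starts count from 0, since 495 of 1966 chromosome 13 spans then equal a GENCODE M21 span and 163 otherwise, and are printed from 1. Groups come from the titles. Loci were tested with edgeR 4.0.16 under R 4.3.3 by quasi-likelihood (TMM, filterByExpr, robust dispersions, no covariate, 1 fit of 4 groups), with Benjamini-Hochberg adjustment over 13749 loci and a two-sided threshold of 0.05. A trial on simulated counts, with the same spread set for all loci, covered mutant low against control low alone. It does not speak for the comparisons with high cells. CPM use the TMM factors, and per-kb levels the exonic length of the matched GENCODE transcript. Floors and intervals cover counting error only. Alternatives were DESeq2 1.42.0, limma-voom 3.58.1, 2 other scalings, 2 other filters, leaving out each sample or chromosome M, replicate blocks, single transcripts, and fits of the groups compared alone. All loci in both windows are reported, with neighbours within 200 kb and the 5 most similar profiles each. Members and lists were chosen with earlier results of these data known.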

Additional observations from a re-analysis of the deposited data

Results flagged for a closer look

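In mutant low cells the locus opposite the end of Slc34a1 had 1 sample far from the other 3, at 0.115 CPM against 0 CPM. That value was 1 fragment. With the other 3 samples at 0, any fragment in the fourth would have been marked, so the mark carries no more than that count.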

How the results depend on the processing

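Slc34a1 and Slc17a1 had an adjusted p under 0.05 for high against low cells in both genotypes under every alternative that left at least 2 samples in each group. Slc17a4 passes the filter only through the high cells, and Slc17a3 does so in some of these fits. Their calls in these comparisons are therefore not counted. In low cells 3 genes were called lower in mutant samples, also without any 1 sample (3 to 3), but 2 of 2 tested in a fit of the low groups alone, 0 in a fit of the 8 samples whose description numbers occur in a high and a low sample, without a block (an alternative chosen after seeing the data, with 2 samples a group), and 1 with single transcripts as features. In high cells 3 were called, against 1 without the low-count filter, 0 with single transcripts and 1 to 3 without 1 sample. For the interaction 0 were called, against 1 (Slc17a1) with DESeq2, 1 with a block by description number, and 0 to 1 without 1 sample. Slc34a1 in mutant high cells was called in 11 of 24 fits, the reported one included, Slc17a1 in 19, Slc17a3 in 23 and Slc17a4 in 5, DESeq2 (adjusted p = 0.0178), limma-voom (0.0220) and the fit of the groups compared (0.0172) among them. The cause of these changes was not tested.

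Small interactions changed sign: Slc17a3 to -0.16 with limma-voom and -0.37 in the 8 samples, Slc17a4 to -0.0154 with RLE scaling. Without 1 sample they ran from -0.0638 to 1.197 for Slc17a3 and from -0.35 to 0.32 for Slc17a4. Whether replicate numbers pair the samples is not stated in the labels. Correlations of same-numbered deviations, not all above 0.1, were 0.09 to 0.50 by title number in low cells, where 3 of 8 samples correlated best with their own number, -0.06 in high cells and -0.09 to 0.23 by description number. With a block by title number 3 genes were called in low cells and 4 in high cells, where Slc17a4 had an adjusted p of 0.0497. With a block by description number, in 8 samples, the interactions were -0.17 for Slc34a1, -0.56 for Slc17a3 and 4.92 for Slc17a1 (adjusted p = 0.0384, against 0.350 in the same samples without the block). Each description number occurs in 1 genotype, so mutant and control cells could not be compared within it.

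Over all loci, 1104 were called in mutant low cells, against 257 in the 8 samples and 427 with single transcripts. In mutant high cells 3780 were called, against 2164, 2450 and 1996 without mutant high sample 2, control high sample 1 or control high sample 2 and 2012 with single transcripts. Between mutant high and mutant low cells 4427 were called, against 2883 without mutant high sample 1 and 2713 with single transcripts. The interaction called 1422, against 663, 835 and 572 without mutant high sample 2, control high sample 1 or control high sample 2, 942 and 865 in the 8 samples with and without the block, and 544 with single transcripts. With library totals in place of TMM the cluster sum was 57.6 CPM in mutant high, 259 in control high, 0.470 in mutant low and 9.76 in control low cells. Depth limits the low cells, where Slc17a1, Slc17a3 and Slc17a4 rest on 4, 3 and 11 mutant fragments.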
